A study of Mus musculus with 4 samples.

Results

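Collagen genes were followed through the open chromatin of the mouse mammary epithelium. The 40 genes were taken from a list of collagen symbols. They are 40 of 21887 protein-coding genes whose reads were counted over the annotated gene plus 2 kb on either side. Accessibility is given as RPM, the reads in that window per 1000000 listed reads, where listed reads are those of the barcodes the authors kept as nuclei. The assay was single-nucleus ATAC-seq, in which the Tn5 transposase cuts open chromatin and combined barcodes mark the nucleus. All groups were wild-type CD1 mice, an outbred strain, with no transgene and no treatment named in the labels. Mammary cells sorted as EpCAM+ and Lin- came from fetuses at embryonic day 18 (2 libraries) and from adults at 8 weeks (2 libraries). How many animals stand behind a replicate is not given in the sources used here.

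Collagens are secreted or membrane proteins built of chains that wind into a triple helix. Fibrillar types form the tensile fibres of connective tissue, type IV forms the sheet-like network of basement membranes, and types VII and XVII help to fix epithelial cells to that membrane. In the mammary gland, fibroblasts make most of the interstitial collagen. The epithelium, and above all its outer basal (myoepithelial) layer, lies directly on the basement membrane that surrounds ducts and buds.

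The libraries held 882 and 1695 nuclei (fetal replicates 1 and 2) and 2465 and 2804 nuclei (adult replicates 1 and 2), with 6028168, 15801908, 13588107 and 19304830 listed reads. No barcode was shared between libraries. The authors' deposited classes, numbered 1 to 14, carry no names. Classes 1, 4, 8 and 12 were read as basal (1875 nuclei), classes 2, 3, 5, 7, 9, 10 and 11 as luminal (5559 nuclei) and class 6 as stromal (213 nuclei), as the choice of comparison set them. Luminal progenitor classes are 3, 5, 7 and 9 and mature luminal classes are 2 and 11. The 8 basal markers summed to 1097 RPM in class 1, 838 in class 8, 514 in class 12 and 500 in class 4, against 160 to 337 in luminal classes. Stage and class nearly coincide: basal nuclei were in classes 1 and 8 in adults and 4 and 12 in fetuses, and only 10 fetal nuclei were in mature luminal classes 2 and 11. A difference between the stages within a lineage is therefore also a difference between classes. Fetal libraries were tagmented in 16 wells each and adult libraries in 32, so this difference in handling follows stage and cannot be told apart from it. The labels name no other batch beyond the replicate number, and each library holds 1 stage, so a batch shared by the libraries of a stage and the stage itself cannot be told apart.

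Class 6 was checked against its markers, since the sort was for an epithelial protein. Of 9 fibroblast markers, 9 were above the other nuclei and 8 at least 1.5-fold, with a summed level of 676 RPM against 127 to 304 in the other classes. Lum was 9.65-fold and Dcn 8.99-fold higher. The 4 luminal keratin and Epcam windows summed to 40.8 RPM in class 6 against 93.1 to 474 in the other classes. The 8 basal markers summed to 279 RPM in class 6, within the 160 to 337 of luminal classes, at 0.763 of the other nuclei. Of these 8, 2 were above the other nuclei and Krt5 had 0 class 6 reads. Of 9 endothelial markers 7 were above the other nuclei, with a summed ratio of 1.43, of 6 pericyte markers 4 with a ratio of 1.25, and of 5 adipocyte markers 3 with a ratio of 2.64, while Lep was at 0. The class holds 23, 33, 82 and 75 nuclei in the 4 libraries. It is called fibroblast-like from its markers, and the share of other stromal cells in its collagen signal was not tested.

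Promoter sequences of 4 genes are shown first, because the accounts of class 6 and of the basal nuclei below turn on these genes. Col1a2 (a chain of type I collagen) and Col3a1 (type III, the fine fibres of loose connective tissue) were most open in class 6. At its promoter region, Col17a1 (the hemidesmosome collagen of basal epithelial cells) was open almost only in basal classes. That of Col7a1 (the anchoring fibril) was open in basal classes, luminal classes and class 6. Each line gives the 250 bases before the annotated start, 5′ to 3′ on the gene's strand, from RefSeq on GRCm38.p6. Capitals mark matches on either strand to 4 motifs. The CCAAT box was searched by its name, the letters CCAAT. The GC box, a site of the kind that Sp1 binds, was searched as GGGCGG. The TATA box was searched as TATAAA. The AP-1 site was searched as TGANTCA, where N is any base. The genes span chr6:4505618-4541543, chr1:45311538-45349706, chr9:108953586-108984875 and chr19:47646341-47692042 in that order, and the windows before their starts lie at chr6:4505368-4505617 (plus strand), chr1:45311288-45311537 (plus), chr9:108953336-108953585 (plus) and chr19:47692043-47692292 (minus).

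Col1a2: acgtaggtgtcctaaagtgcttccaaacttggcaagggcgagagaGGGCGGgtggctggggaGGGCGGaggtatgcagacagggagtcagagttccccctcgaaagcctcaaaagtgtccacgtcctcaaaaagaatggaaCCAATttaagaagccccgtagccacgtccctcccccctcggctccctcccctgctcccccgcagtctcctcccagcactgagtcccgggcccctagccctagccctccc
Col3a1: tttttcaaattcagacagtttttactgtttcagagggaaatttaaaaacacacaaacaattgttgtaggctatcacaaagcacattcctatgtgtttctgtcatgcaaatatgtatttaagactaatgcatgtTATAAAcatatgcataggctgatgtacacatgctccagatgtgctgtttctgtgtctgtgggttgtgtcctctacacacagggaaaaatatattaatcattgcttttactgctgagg
Col7a1: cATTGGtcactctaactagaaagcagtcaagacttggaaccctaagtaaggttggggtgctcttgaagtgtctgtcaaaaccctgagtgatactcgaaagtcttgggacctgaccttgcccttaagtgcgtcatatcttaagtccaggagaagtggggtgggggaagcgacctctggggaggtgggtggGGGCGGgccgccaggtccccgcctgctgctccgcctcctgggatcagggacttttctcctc
Col17a1: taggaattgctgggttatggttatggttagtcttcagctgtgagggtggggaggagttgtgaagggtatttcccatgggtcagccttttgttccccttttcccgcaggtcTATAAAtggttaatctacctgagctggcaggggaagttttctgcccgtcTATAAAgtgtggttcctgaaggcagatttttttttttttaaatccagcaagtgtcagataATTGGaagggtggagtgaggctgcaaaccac

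The Col1a2 window held 2 GC box matches and 1 CCAAT box match, and its GC content was 62%. The Col3a1 window held 1 TATA box match, with a GC content of 35.2% and 0 CpG. The Col7a1 window held 1 GC box and 1 CCAAT box match, and that of Col17a1 held 2 TATA box matches and 1 CCAAT box match. None of the 4 windows held the AP-1 letters, and no matches overlapped in them. Promoter entries matched 32 of the 40 genes in 35 windows. The 8 genes without an entry are Col1a1, Col2a1, Col4a3, Col5a2, Col9a3, Col12a1, Col14a1 and Col22a1. Among the 35 windows, 19 (54.3%) held a GC box, against 32.7% of all 32851 windows of that length. The CCAAT box was in 12 (34.3% against 33.8%), the TATA box in 5 (14.3% against 12.4%) and the AP-1 site in 1 (2.86% against 6.75%). A match is a description of the letters and not of a bound site.

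Per kilobase of window, most collagen genes lay below the median gene in these sorted cells. Their median was 0.365 RPM per kilobase, against 0.668 over all genes, and 13 of 40 lay above the median of all genes. Their windows ran from 11.1 kb (Col10a1) to 424 kb (Col25a1). Genes were not matched for window length, and its part in this difference was not tested. The densest were Col16a1 at 2.04, Col9a3 at 1.78 and Col18a1 at 1.45 RPM per kilobase. Col3a1 stood at 0.211 and Col5a2 at 0.16 on the same scale. Col10a1 lies wholly inside the window of another gene, so its 98 reads cannot be assigned to it.

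**Figure D1:**
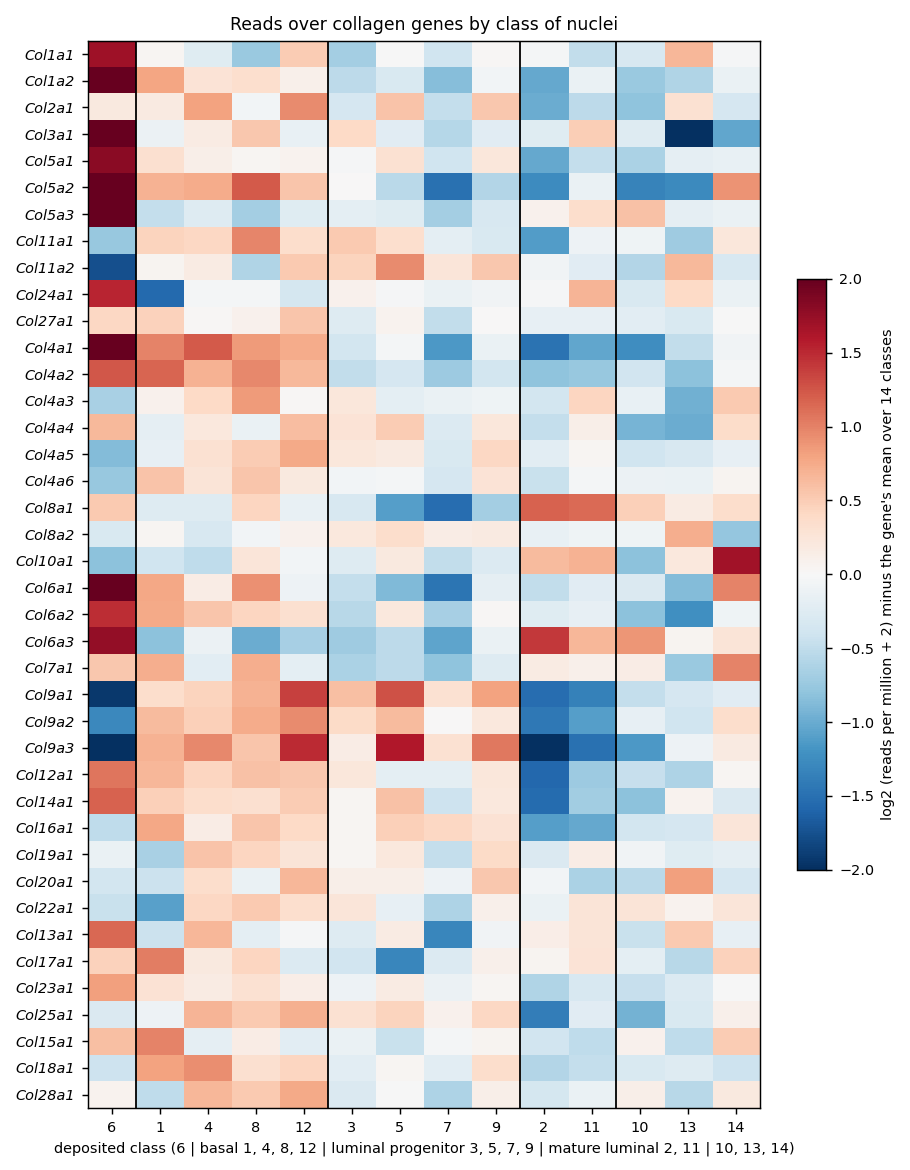
Accessibility of the 40 collagen genes in the 14 deposited classes. Colour is log2 of RPM plus 2, minus the gene's mean over the classes, with all 4 libraries summed. Red is above and blue below that mean. Type I, III, V and VI genes are reddest in class 6, and Col4a1 and Col4a2 are also red in the basal classes. The 3 type IX genes are blue in classes 6, 2 and 11.

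Type I, III, V and VI genes had their highest accessibility in class 6. Of the 40 genes, 17 had their highest level of all classes there, followed by 7 in class 12. The share of all genes with their highest level in class 6 was not counted, so the 17 cannot be read as particular to collagen genes. Some leads were small: Col4a4 had 63.5 RPM in class 6 and 61.6 in class 12. For Col4a2 the levels in class 6 and class 1 overlapped within counting error. Class 6 was compared with the other nuclei without a test, because the classes were made from the accessibility of the same nuclei. Among 36 genes for which at least 5 class 6 reads were expected in each stage, 12 were at least 1.5-fold higher in class 6 in both stages, where 7.11% of all genes were. In the opposite direction 6 were at least 1.5-fold lower, where 11.9% of all genes were. Counting nuclei with a read in place of reads gave 6 higher genes, and asking for each of the 4 libraries gave 7 higher and 3 lower. The median ratio was 1.41 over these genes and 1.00 over all genes.

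Col1a2 stood at 110, 79.8, 87.6 and 96.9 RPM in class 6 of fetal replicates 1 and 2 and adult replicates 1 and 2. The other nuclei of the same libraries gave 8.84, 10.9, 6.0 and 9.08. The class 6 values did not overlap the others, and the ratio was 8.57 in fetal and 11.9 in adult nuclei. Col1a1, which codes for the other chain of type I collagen, reached 145, 88.4, 116 and 57.1 RPM against 30.4, 27.1, 21.0 and 21.0, a ratio of 3.74 in fetal and 3.90 in adult nuclei. Both type I genes were thus higher in class 6 in all 4 libraries.

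Type V collagen is a minor fibrillar collagen that joins type I fibrils. Col5a2 had 124, 103, 114 and 147 RPM in class 6 against 13.6, 21.9, 14.1 and 19.8 elsewhere. Col5a3 had 180, 214, 135 and 131 against 24.8, 22.9, 27.7 and 25.7. The ratios were 5.56 and 7.62 for Col5a2 and 8.69 and 5.00 for Col5a3, in fetal and adult nuclei. Col5a1 was also counted, at 2.74 and 4.90, so the 3 type V genes were raised together.

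Col3a1, neighbour of Col5a2 on chromosome 1, had 69.1, 125, 102 and 72.6 RPM in class 6 against 6.63, 5.76, 5.39 and 7.96 elsewhere. It was not counted among the 12, because fewer than 5 fetal class 6 reads were expected from its low level in other nuclei. Its ratios of 18.2 and 12.3 rest on 139 class 6 reads. The same holds for Col6a1, with ratios of 10.8 and 5.03 on 47 reads, and Col6a2, with 3.57 and 3.19 on 37 reads. These 2 genes and Col6a3 code for the chains of type VI collagen, which forms beaded filaments around cells. Col6a3 passed the floor, with 69.1, 94.1, 130 and 125 RPM in class 6 against 29.9, 25.7, 44.4 and 46.5 elsewhere.

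The type IV pair that makes up most basement membranes was raised over all other nuclei as well. Col4a1 had 532, 425, 386 and 490 RPM in class 6 against 121, 124, 74.1 and 67.8 elsewhere, or 3.71-fold in fetal and 6.33-fold in adult nuclei. Col4a2 had 297, 291, 431 and 450 against 168, 172, 147 and 145, or 1.72-fold and 3.03-fold. Their X-linked relatives went the other way: Col4a5 was at 0.456 and 0.501 of the level of the other nuclei and Col4a6 at 0.505 and 0.606. The remaining genes counted as higher were Col14a1, Col13a1, Col12a1 and Col24a1. The other nuclei were mostly luminal. Basal nuclei alone had 323, 247, 398 and 326 RPM of Col4a2, which overlapped class 6 in the fetal libraries. For Col4a1 they had 219, 193, 241 and 159, below class 6 in each library. At the promoter region that the pair shares, given further on, class 6 lay below basal nuclei.

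The 3 chains of type IX collagen, which lies on the surface of cartilage fibrils, were low in class 6. Col9a3 had 0, 11.4, 16.6 and 0 RPM there against 90.8, 82.5, 30.8 and 27.2 elsewhere, on 11 class 6 reads. Col9a1 had 13.8, 5.70, 14.2 and 3.46 against 68.5, 69.3, 33.6 and 30.4, on 12 reads. Col9a2, also on 12 reads, was at 0.259 and 0.401 of the level of other nuclei. Col11a2 had 0, 5.70, 0 and 0 against 15.0, 14.9, 9.27 and 9.18, on 2 reads. Col7a1 ranged from 0.672-fold the level of other nuclei in fetal replicate 1 to 3.57-fold in fetal replicate 2.

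**Figure D2:**
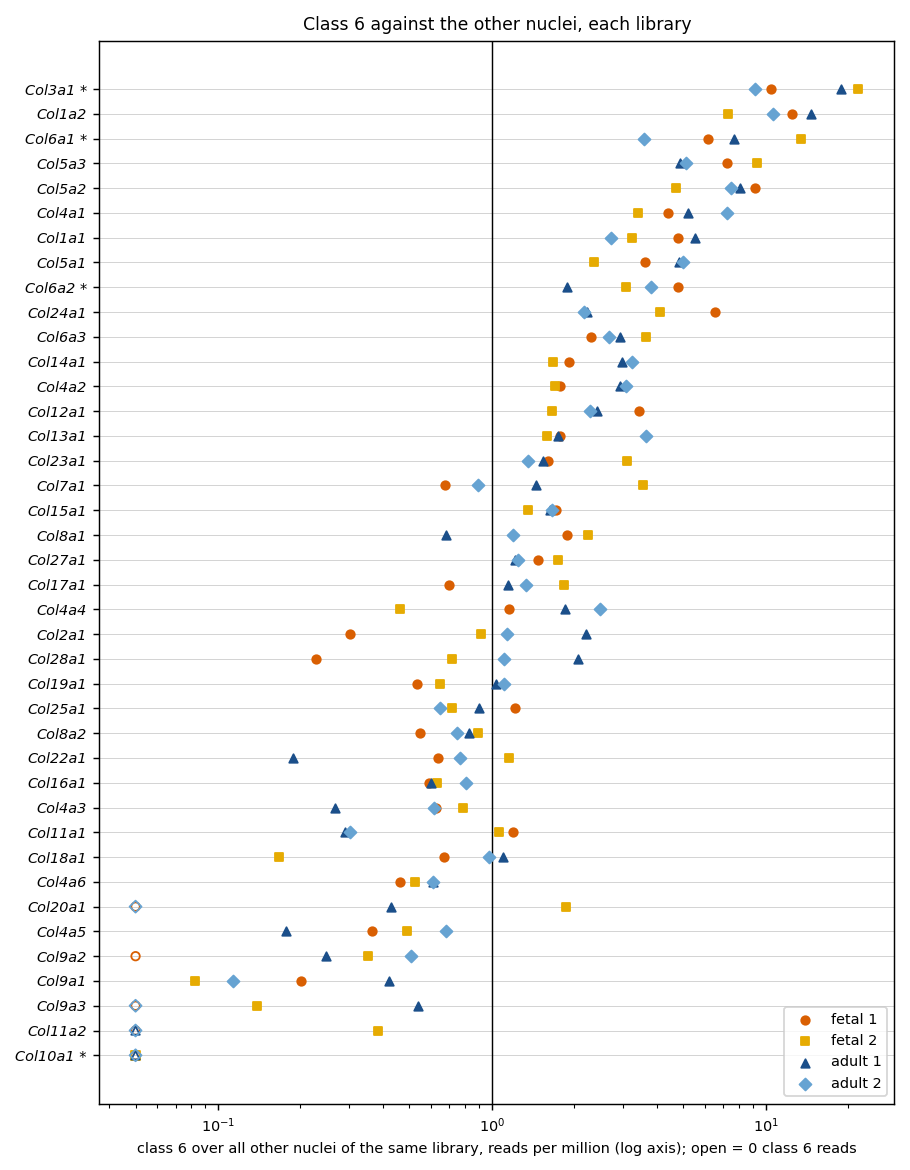
Ratio of class 6 to all other nuclei of the same library for each collagen gene, in RPM on a log axis. Each point is 1 library, open points have 0 class 6 reads, and an asterisk marks genes under the floor of 5 expected reads. Col3a1 and Col1a2 lie above 7 in all 4 libraries, and the type IX genes lie below 1 in all 4.

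Fetal and adult class 6 nuclei were compared with libraries as replicates, and no collagen gene passed the test. The edgeR quasi-likelihood test called 0 of 30 collagen genes tested, where 0.051% of all genes tested were called. DESeq2 also called 0, while 5 of the 30 collagen genes and 880 of all 9813 genes had an unadjusted p under 0.05. Largest among the estimates was Col24a1, with 262 and 188 RPM in fetal and 94.7 and 107 in adult class 6, a log2 difference of 1.20 ± 0.34 (SE) with an adjusted p of 0.208. Col23a1, a transmembrane collagen, had 207 and 385 against 159 and 142, at 1.12 ± 0.30 and an adjusted p of 0.187. Raising the minimum to a mean of 50 reads per library gave 2 calls. The class rests on 144798, 350874, 422477 and 578132 listed reads in the 4 libraries.

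Within the epithelium, the type IV pair Col4a1 and Col4a2 had the highest basal to luminal ratios of the collagen genes by the median over libraries. Basal classes were set against luminal classes of the same library, again without a test. In all 4 libraries 3 of 40 genes were at least 1.5-fold higher in basal nuclei, where 1.19% of all genes were. None was that much lower in all 4, where 1.95% of all genes were. The median over libraries exceeded 1 for 34 of 40 genes, and its median over the genes was 1.37 against 0.913 over all genes.

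Col4a1 had 219, 193, 241 and 159 RPM in basal nuclei of fetal replicates 1 and 2 and adult replicates 1 and 2, against 84.4, 89.2, 48.6 and 41.8 in luminal nuclei. Col4a2 had 323, 247, 398 and 326 against 112, 133, 110 and 94.4. Their median ratios were 3.20 and 3.16, and basal and luminal values did not overlap for either gene. Col5a2 followed, with 19.3, 38.1, 42.5 and 42.0 in basal and 11.1, 14.1, 9.60 and 12.5 in luminal nuclei, a median ratio of 3.04. Col1a2 had a median ratio of 2.15 but only 1.16 in fetal replicate 2, where it stood at 12.1 and 10.4 RPM. Without fetal replicate 2, 7 genes met the 1.5-fold rule.

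At the other end the window of Col10a1, whose reads cannot be assigned to that gene, had the lowest median ratio, 0.513. Next came Col6a3, with 37.9, 21.7, 19.7 and 14.9 RPM in basal and 24.9, 28.1, 47.6 and 56.2 in luminal nuclei. It was thus lower in basal nuclei in both adult libraries, at 0.414 and 0.265 of the luminal level, but 1.52-fold higher in fetal replicate 1. Col24a1, a fibrillar collagen, had 41.0, 41.3, 12.9 and 36.5 in basal and 39.9, 46.4, 47.6 and 53.1 in luminal nuclei, so adult replicate 1 was lowest. Col5a3 had 26.7, 22.8, 19.7 and 18.1 against 22.4, 23.4, 29.1 and 27.9, and Col11a2 13.7, 12.1, 10.5 and 5.97 against 14.6, 16.7, 8.80 and 10.5. Median ratios were 0.592 for Col6a3, 0.789 for Col24a1, 0.826 for Col5a3 and 0.831 for Col11a2. Basal and luminal values of these genes overlapped.

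Col17a1 and Col7a1 were more than 1.5-fold higher in basal nuclei of both adult libraries and of neither fetal library. Col17a1 had 98.6 and 74.1 RPM in adult basal and 44.4 and 43.7 in adult luminal nuclei, while the fetal values were 39.2 and 46.0 against 40.2 and 40.6. Col7a1 had 46.2 and 43.5 against 18.8 and 26.9 in adults, and 16.8 and 22.8 against 22.1 and 18.8 in fetuses. Col15a1, a basement membrane collagen of the multiplexin group, followed the same course with 203 and 173 against 103 and 94.1 in adults and 92.6 and 105 against 109 and 111 in fetuses. The same held for Col2a1, Col5a1, Col4a6, Col9a1, Col9a2, Col9a3, Col12a1, Col14a1 and Col16a1. Ratios of Col16a1, for example, were 0.936 and 0.942 in fetal and 2.43 and 1.98 in adult libraries. The share of all genes with this pattern was not counted. Mature luminal nuclei, part of the luminal side, were nearly absent from fetal libraries, and their part in the pattern was not tested.

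**Figure D3:**
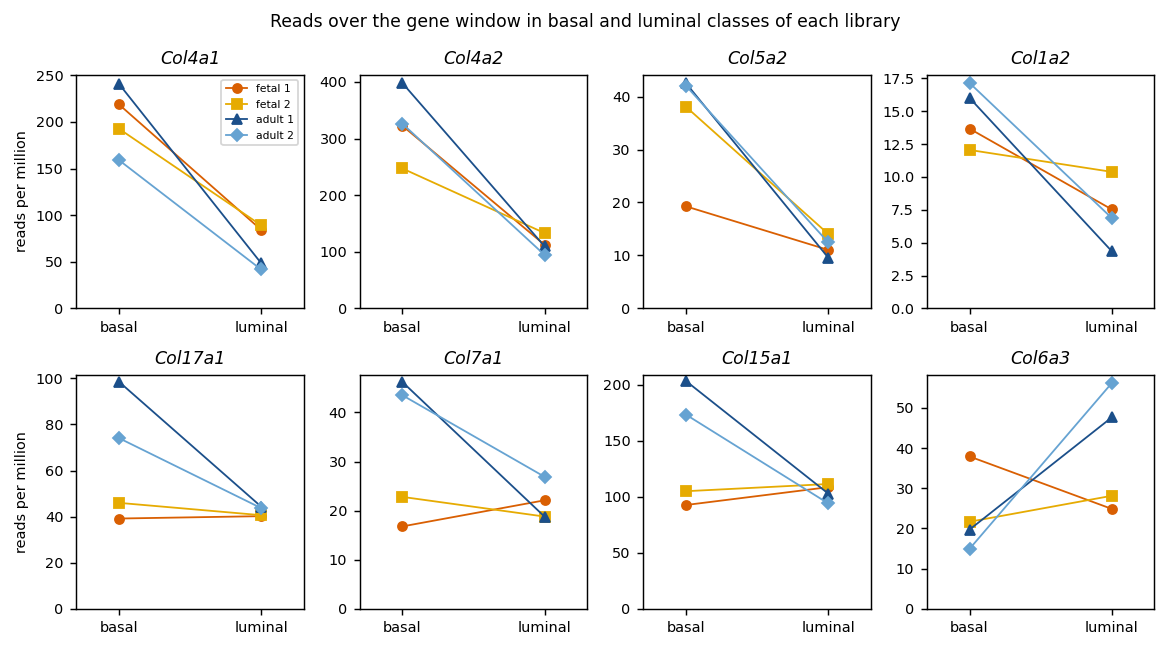
Accessibility in RPM over 8 collagen gene windows in basal and in luminal nuclei, with 1 line per library. Col4a1, Col4a2 and Col5a2 fall from basal to luminal in all 4 libraries, Col17a1, Col7a1 and Col15a1 fall clearly in the 2 adult libraries, and Col6a3 rises in the adult libraries.

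The luminal classes differed among themselves in the adult, a comparison added after the values had been seen. Progenitor classes 3 and 7 were set against mature luminal classes 2 and 11 of the same adult library, with no test. In both adult libraries 8 of 40 genes were at least 1.5-fold higher in progenitors, where 7.67% of all genes were, and 6 were at least 1.5-fold lower, where 10.2% were. Col9a3 had 43.0 and 43.0 RPM in progenitors against 9.57 and 6.60 in mature luminal nuclei of adult replicates 1 and 2, Col9a1 had 51.4 and 48.2 against 10.3 and 12.6, and Col9a2 27.7 and 24.1 against 7.31 and 8.31. The other genes higher in progenitors were Col16a1, Col25a1, Col12a1, Col14a1 and Col11a1. Col8a1, a short-chain network collagen, had 16.4 and 24.7 RPM in progenitors against 94.7 and 91.2 in mature luminal nuclei. Col6a3 had 15.6 and 17.1 against 72.6 and 80.8, so it was high both in class 6 and in mature luminal nuclei. Col13a1, Col5a3 and Col7a1 were also lower in progenitors. The remaining 1 of the 6 is the window of Col10a1, whose reads cannot be assigned to that gene.

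Over whole libraries, collagen genes were more often higher than lower in the fetal libraries. The edgeR quasi-likelihood test called 18 of 40 genes at an adjusted p under 0.05, 16 higher in fetal libraries and 2 lower. Among all 18808 genes tested 22.4% were called, 11.0% higher and 11.4% lower. The median log2 difference, fetal minus adult, was 0.33 over the collagen genes and 0.00 over all genes, and 29 of 40 were above 0. These p-values measure the spread between 2 libraries per stage. Mature luminal nuclei were 0.340% and 0.413% of fetal and 40.6% and 38.3% of adult nuclei, and basal nuclei 25.7% and 34.9% against 13.7% and 25.6%. The whole-library fit alone cannot tell a stage difference apart from these lineage shares. The fits within basal and within luminal progenitor classes, given further on, compare nuclei of 1 lineage.

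FACIT collagens, which attach to the surface of other fibrils, gave 8 of the 16 genes higher in fetal libraries. Of the 9 FACIT genes 8 were called, where 22.4% of all genes tested were. Col9a3 had 88.6 and 80.9 RPM in the fetal and 30.3 and 26.4 in the adult libraries, a log2 difference of 1.57 ± 0.13 (SE) with an adjusted p of 1.34e-06. Col9a1 had 67.2 and 67.9 against 33.0 and 29.6, and Col9a2 had 27.2 and 32.0 against 18.6 and 20.3. Fetal and adult values did not overlap for any of the 3. Col14a1 had 104 and 109 against 60.4 and 67.4, Col12a1 78.6 and 78.4 against 50.04 and 59.9, and Col16a1 139 and 130 against 109 and 93.7. Col19a1 had 77.0 and 91.6 against 54.8 and 65.8, and Col20a1 17.3 and 15.6 against 10.9 and 7.98. Log2 differences of these 7 genes ran from 0.39 for Col16a1 to 1.10 for Col9a1. Col22a1, the ninth, had 64.5 and 64.3 against 49.2 and 58.3 and was not called (0.25 ± 0.13, adjusted p = 0.195). Within luminal progenitor classes 4 of the 9 were called higher in fetal nuclei, where 9.64% of all genes were. Within basal classes 0 were called higher and 1, Col16a1, was called lower. Col9a1, Col9a2, Col9a3, Col12a1, Col14a1 and Col16a1 were also lower in adult mature luminal than in adult progenitor nuclei. The part of that lineage in the whole-library calls was not tested.

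Among fibrillar genes 3 of 11 were called, all higher in fetal libraries, where 22.4% of all genes tested were called and 11.0% were higher. Col2a1, the main cartilage collagen, had 44.8 and 49.7 RPM in fetal and 23.4 and 19.8 in adult libraries, at 1.13 ± 0.14 (SE, log2) with an adjusted p of 6.56e-05. Col11a2, its partner in cartilage fibrils, had 14.6 and 14.7 against 8.98 and 8.91, and Col5a1 had 86.9 and 82.1 against 65.6 and 56.9. The type I and III genes were not called: Col1a1 had 33.2 and 28.5 against 23.99 and 22.1 (0.40 ± 0.15, adjusted p = 0.0658), Col1a2 11.3 and 12.5 against 8.54 and 11.7, and Col3a1 8.13 and 8.42 against 8.39 and 9.89. Class 6 was 2.61% and 1.95% of fetal and 3.33% and 2.67% of adult nuclei, and without it 19 of 40 genes were called, an alternative chosen after the values had been seen.

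Of the 6 type IV genes, Col4a1 was higher in fetal libraries, with 131 and 130 RPM against 83.8 and 80.4 in adult libraries (0.66 ± 0.11, adjusted p = 0.000493). Col4a4 had 48.1 and 48.7 against 34.2 and 38.4, with an adjusted p of 0.0411, and lost its call with total-read scaling, DESeq2 and 10 kb on either side. Col4a2, which shares its start region with Col4a1, had 171 and 174 against 155 and 155 and was not called (0.14 ± 0.10, adjusted p = 0.333). Further genes called were Col18a1, the source of endostatin, with 205 and 218 against 146 and 140, Col25a1, a transmembrane collagen, with 126 and 146 against 76.3 and 90.0, and Col28a1 with 59.2 and 55.4 against 34.3 and 42.4.

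Col8a1 and Col6a3 were the 2 genes called lower in fetal libraries. Col8a1 had 30.0 and 27.4 RPM in fetal against 55.0 and 61.0 in adult libraries, at -1.04 ± 0.13 (SE, log2) with an adjusted p of 7.66e-05. Col6a3 had 30.9 and 27.2 against 47.0 and 48.8, at -0.75 ± 0.13 with 0.00102. Both were high in the mature luminal classes 2 and 11, at 93.5 and 90.4 RPM for Col8a1 and 89.1 and 52.3 for Col6a3. Among the 18 genes, 7 kept direction and call under all 14 alternatives: Col14a1, Col2a1, Col4a1, Col6a3, Col8a1, Col9a1 and Col9a3. Without fetal replicate 2 the count fell to 8. Of the other 11, Col11a2 lost its call under 7 of 14 (log2 from 0.20 to 0.78, adjusted p up to 0.316), Col4a4 under 6, Col16a1 under 4 and Col20a1 under 3. Col5a1 and Col19a1 lost it under 2 each, and Col9a2, Col12a1, Col18a1, Col25a1 and Col28a1 under 1 each. A fit without 1 library leaves a stage with a single library, which is then assumed to vary like those of the other stage.

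Within basal classes the direction was mixed. The test called 6 of 39 collagen genes, 4 lower and 2 higher in fetal nuclei, where 9.16% of all genes tested were called, 4.03% higher and 5.12% lower in fetal nuclei. The median log2 difference was -0.10 over the collagen genes and 0.01 over all genes. Col7a1 had 16.8 and 22.8 RPM in fetal and 46.2 and 43.5 in adult basal nuclei, at -1.15 ± 0.26 (SE, log2) with an adjusted p of 0.00373. Col17a1 had 39.2 and 46.0 against 98.6 and 74.1, at -1.001 ± 0.21 with 0.00134. Col15a1 had 92.6 and 105 against 203 and 173, at -0.94 ± 0.16 with 0.00015. Col16a1 had 134 and 128 against 227 and 152, at -0.54 ± 0.17 with 0.0331. Stages did not overlap in any of the 4.

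Higher in fetal basal nuclei were Col28a1, with 101 and 68.2 RPM against 37.6 and 53.0 (0.79 ± 0.22, adjusted p = 0.0171), and Col2a1, with 50.4 and 58.4 against 33.3 and 31.1 (0.75 ± 0.23, 0.0364). Col4a1 had 219 and 193 against 241 and 159, a log2 difference of 0.02 ± 0.16, so its stages overlapped. Col4a2 had 323 and 247 against 398 and 326, at -0.38 ± 0.13 with an adjusted p of 0.0638. Col15a1 and Col17a1 were called under all 14 alternatives. Col16a1, which ran from -0.80 to -0.27, lost its call under 9 of 14, among them DESeq2, total-read scaling, both other window sizes and leaving out any of 3 libraries (fetal replicate 1, fetal replicate 2 or adult replicate 1). Col2a1 lost its call under 5 of 14 and Col28a1 under 4. Col7a1 lost its call with 10 kb on either side (-0.18) and without fetal replicate 1 (-0.98), and without that library Col15a1 and Col17a1 were the calls left. The 8 basal markers summed to 446 and 518 RPM in fetal and 1064 and 940 in adult basal classes, and their part in these differences was not tested.

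In luminal progenitor classes, 11 of 39 collagen genes were called, where 19.9% of all genes tested were called. All 11 were higher in fetal nuclei, as were 9.64% of all genes. The median log2 difference was 0.35 over the collagen genes and 0.00 over all genes, and 34 of 39 were above 0. Col9a3 had 92.0 and 86.7 RPM in fetal against 42.7 and 42.2 in adult progenitors, at 1.03 ± 0.14 (SE, log2) with an adjusted p of 5.35e-06. Col2a1 had 44.6 and 45.7 against 25.1 and 18.9, at 1.00 ± 0.18 with 0.000285. Col13a1, a transmembrane collagen of cell contacts, had 37.5 and 33.3 against 15.6 and 22.1, at 0.85 ± 0.20 with 0.00388. In each of the 3 the stages stood apart. Col6a3 had 24.9 and 28.3 against 15.4 and 16.8, the opposite of its direction over whole libraries. Col4a1 had 84.7 and 89.7 against 56.0 and 56.5, Col5a1 89.7 and 82.2 against 64.8 and 56.5, and Col18a1 182 and 201 against 142 and 133.

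The other 4 calls in progenitors were Col19a1, with 78.4 and 91.4 RPM against 54.7 and 58.0, Col28a1, with 45.4 and 50.7 against 31.5 and 32.5, Col14a1, with 99.8 and 107 against 69.1 and 72.0, and Col9a1, with 70.3 and 72.7 against 51.7 and 47.4. Their log2 differences lay between 0.49 and 0.56. Col2a1 and Col9a3 were called under all 15 alternatives, and without fetal replicate 2 these 2 were the calls left. Taking all luminal classes in place of progenitors turned Col6a3 to -0.98. The 8 basal markers summed to 331 and 337 RPM in classes 5 and 9, which hold mostly fetal nuclei, and to 318 and 232 in classes 3 and 7, which hold mostly adult nuclei. Over all luminal classes they summed to 351 and 329 RPM in fetal and 211 and 213 in adult libraries, and their part in the progenitor differences was not tested.

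**Figure D4:**
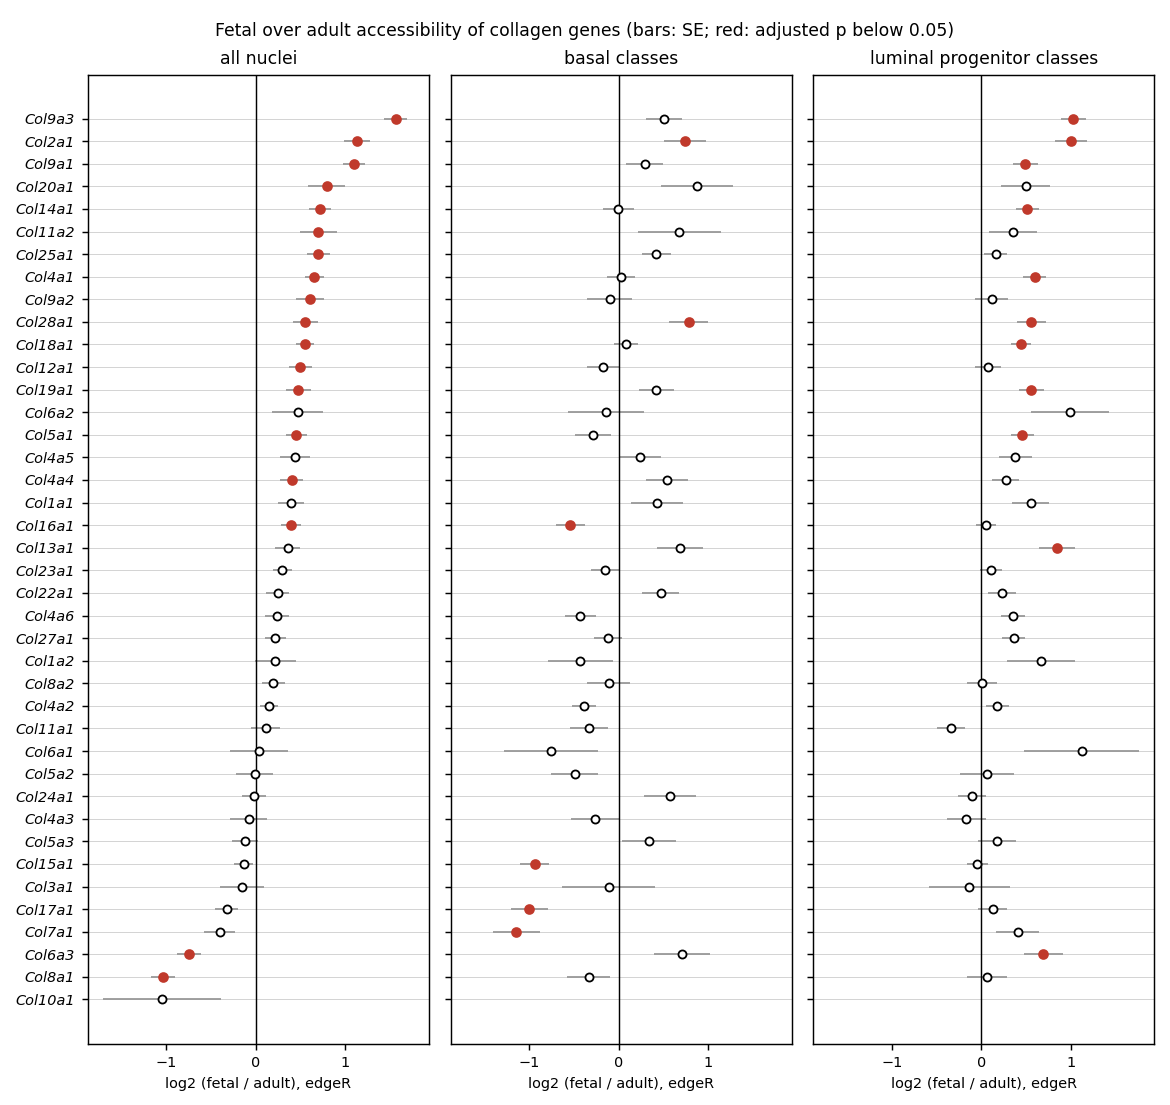
Log2 difference, fetal minus adult, of each collagen gene in all nuclei, in basal classes and in luminal progenitor classes. Points are edgeR estimates, bars the SE, and red marks an adjusted p under 0.05. Col7a1, Col17a1 and Col15a1 lie at or below -0.94 in basal classes and between -0.05 and 0.40 in luminal progenitor classes.

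The difference between the basal and the progenitor stage effect was tested itself, in a fit with the library as a block. It was called for 10 of 39 collagen genes, where 8.59% of all genes tested were called. In all 10 the log2 difference, fetal minus adult, was lower in basal than in progenitor nuclei, a direction called for 5.21% of all genes, against 3.38% in the other. Col7a1 differed by -1.57 ± 0.35 (SE, log2, adjusted p = 0.000329), Col17a1 by -1.16 ± 0.25 (0.0002) and Col15a1 by -0.92 ± 0.17 (7.32e-06). These 3 kept their call under all 6 alternatives, none of which changed the gene window. In the basal fit with 10 kb on either side, Col7a1 stood at -0.18. Among type IV genes Col4a6 stood at -0.81 ± 0.19, Col4a2 at -0.61 ± 0.15 and Col4a1 at -0.58 ± 0.17. Over the alternatives Col4a2 ran from -0.89 to -0.26 and Col4a1 from -0.90 to -0.29, and both lost their call without the library block, with DESeq2 and without fetal replicate 2. Col5a1, Col16a1, Col14a1 and Col27a1 were the others called, and each lost its call under at least 4 of 6 alternatives. Without the library block 4 genes were called, and DESeq2 called 3.

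Promoter regions from the authors' list, each 1000 bases wide on mm10, were read in the same nuclei. The region at the Col17a1 start (chr19:47691489-47692488, whose upstream sequence is printed above) held 131 reads from basal, 18 from luminal and 0 from class 6 nuclei. In basal nuclei that is 3.73, 7.72, 20.9 and 12.4 RPM in the 4 libraries, against 0, 1.78, 0 and 0.0709 in luminal nuclei. Mature luminal nuclei had 0 reads, which allows up to 0.215 RPM at 3 reads over the group, so basal nuclei were at least 48.6-fold higher. For class 6 the limit is 2.00 RPM, and the basal level at least 5.20-fold higher. Such limits cover counting error only. The promoter region of Col17a1 thus stood at 10.4 RPM in basal and 0.463 in luminal nuclei over all libraries, while the whole gene window had a median basal to luminal ratio of 1.41.

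The head-to-head genes Col4a1 and Col4a2 share 1 promoter region (chr8:11312078-11313077) that holds both annotated starts. Basal nuclei had 24.9, 22.6, 29.6 and 22.6 RPM there, luminal nuclei 15.3, 15.3, 4.18 and 3.26, and class 6 nuclei 13.8, 14.3, 16.6 and 17.3. Fetal and adult values overlapped in basal nuclei and stood apart in luminal nuclei, where both adult libraries were lower. Over whole libraries it had 17.8 and 17.8 against 7.87 and 8.13, a log2 difference of 1.14 ± 0.19 (SE) with an adjusted p of 4.07e-06. Within the adult, progenitors had 6.34 and 4.77 and mature luminal nuclei 2.96 and 2.32.

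At the Col3a1 start (chr1:45310969-45311968) class 6 gave 22 reads, basal nuclei 9 and luminal nuclei 11, or 14.7 RPM against 0.716 in basal and 0.283 in luminal nuclei. Col1a2 (chr6:4505331-4506330) had 22.7 in class 6, 8.68 in basal and 2.63 in luminal nuclei, so its order was the same with a higher basal level. The Col1a1 promoter region (chr11:94936582-94937581), which lies within the annotated gene, had 17.4, 13.9 and 11.5. The Col7a1 region (chr9:108953098-108954097) had 11.2 in basal, 5.85 in luminal progenitor and 13.4 in mature luminal nuclei, and 7.35 in class 6. None of these 4 regions, nor that of Col17a1, was called between stages over whole libraries, with adjusted p from 0.158 to 0.976.

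Other promoter regions are named here after their values were seen. Col5a2 (chr1:45502465-45503464) had 10.3 RPM in basal, 6.01 in class 6 and 1.08 in luminal nuclei. Col6a3 (chr1:90843463-90844462) had 14.7 in class 6, all from adult libraries, against 0.159 in basal and 0.489 in luminal nuclei. Col5a3 (chr9:20814468-20815467) had 20.7 in class 6 against 1.03 and 2.44. Col9a3 (chr2:180598025-180599024) had 18.4 in luminal progenitors, 13.6 in basal and 2.15 in mature luminal nuclei, with 0 reads in class 6, at least 9.20-fold below progenitors.

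**Figure D5:**
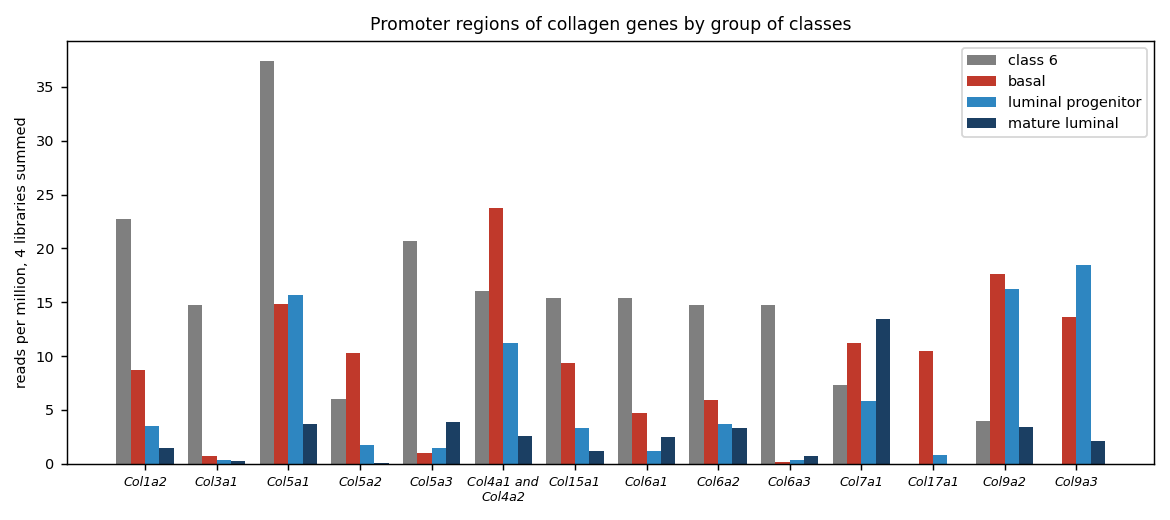
Accessibility in RPM in the promoter regions of collagen genes, with the 4 libraries summed, in class 6, basal, luminal progenitor and mature luminal nuclei. Bars start at 0 and carry no error, since libraries are summed. Col17a1 has bars almost only in basal nuclei at 10.4 RPM, and Col3a1 and Col6a3 almost only in class 6 at 14.7.

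Among the 49 collagen promoter regions tested, 16 were called, all higher in fetal libraries, which is 32.7% where 21.5% of all promoter regions were called, 10.5% higher and 11.0% lower. Distal regions inside the collagen windows numbered 411, of which 361 were tested and 115 called, 73 higher and 42 lower in fetal libraries, where 15.9% of all distal regions were higher and 19.0% lower. DESeq2 called 67 of them, and a minimum mean of 50 reads left 44. The share of 31.9% called lay near the 34.9% of all distal regions tested that were called. Counting promoter and distal regions together, Col18a1 held 10 called higher in fetal libraries and 2 called lower, Col27a1 7 and 5, and Col25a1 8 and 0. Col8a1 held 5 regions called lower in fetal libraries and 1 called higher, while the 7 called regions of Col14a1 and the 5 of Col19a1 were all higher.

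The distal regions most strongly lower in fetal libraries were adult luminal. The region at chr3:145470713-145471712 in Col24a1 had 2 and 6 fetal and 88 and 101 adult reads, at -3.95 ± 0.51 (SE, log2). Of its reads, 188 came from luminal nuclei, with 12.6 RPM in mature luminal classes and 0.171 in progenitors. In Col6a3, chr1:90821218-90822217 had 6 and 1 against 83 and 94 reads (-3.93 ± 0.59), with 11.2 RPM in mature luminal and 0 reads in basal nuclei, at least 46.7-fold lower. In Col8a1, chr16:57688592-57689591 had 2 and 2 against 35 and 55 reads (-3.77 ± 0.72), again mostly in mature luminal nuclei at 5.58 RPM. In Col15a1, chr4:47257807-47258806 had 0 and 0 against 25 and 63 reads, at least 19.5-fold lower in fetal libraries, and its 88 luminal reads lay at 5.87 RPM in mature luminal nuclei. That direction is the same as in Col15a1 over basal nuclei, but basal nuclei had 0 reads in this region. Mature luminal classes held 12266 and 42133 listed reads in fetal and 5744170 and 8181983 in adult libraries. Low fetal counts in these regions, and the fetal limit for Col15a1, therefore cannot be told apart from the near absence of that lineage.

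The distal regions most strongly higher in fetal libraries were open in both fetal lineages. In Col14a1, chr15:55416862-55417861 had 19 and 68 fetal against 0 and 6 adult reads, at 4.36 ± 0.67 (SE, log2), with 2.49 and 6.03 RPM in fetal basal and 3.27 and 3.78 in fetal luminal nuclei. In Col2a1, chr15:97990142-97991141 had 20 and 73 against 2 and 6 (4.03 ± 0.59), with 2.49 and 7.54 RPM in fetal basal and 3.01 and 3.36 in fetal luminal nuclei. In Col4a1, chr8:11290810-11291809 had 96 and 154 against 22 and 14 (3.47 ± 0.35), with 17.3 RPM in class 5 and 15.7 in class 12. In Col9a1, chr1:24211625-24212624 had 46 and 96 against 14 and 8 (3.29 ± 0.44), with 14.2 in class 12 and 10.7 in class 5. Class 6 held 0 reads of the Col2a1 and Col9a1 regions and 2 each of the others. Adjusted p-values of the 8 regions ran from 2.68e-09 to 9.00e-05.

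The authors' deposited Cicero scores give how far the accessibility of 2 regions goes together over nuclei pooled from all libraries. The type IV pair had the highest shares of scores of at least 0.1. Pairs with a region in a collagen window numbered 32925, of which 1308 (3.97%) scored at least 0.1 and 0.762% at least 0.25. For pairs touching any gene window the shares were 2.55% and 0.478%. Col4a1 had 9.24% and Col4a2 9.82% of their pairs at 0.1 or above, the highest shares at that score. At 0.25 or above the order was different, with 71 of 3917 pairs for Col4a1 and 74 of 4307 for Col4a2 against 2 of 102 for Col1a2 and 13 of 691 for Col8a1. Between the type IV genes, regions of one paired with those of the other at 0.1 or above in 188 of 1037 cases, up to 0.628. The 2 windows overlap around the shared start, so some regions count for both. Other collagen neighbours had few such pairs: Col3a1 with Col5a2 had 0 of 8, Col4a3 with Col4a4 0 of 82, Col4a5 with Col4a6 0 of 103 and Col9a1 with Col19a1 1 of 104. The highest pair of the Col17a1 promoter region was 328652 bases away at a score of 0.468.

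Genes that work with collagens were read off the same fits, with at most the 4 largest called changes named per list. In whole libraries, where 22.4% of all genes tested were called, 5 of 17 genes of chain modification and folding were higher in fetal libraries and 2 lower, led by Plod2, a lysyl hydroxylase (0.83 ± 0.15 SE, log2), and Serpinh1, the collagen chaperone HSP47 (0.80 ± 0.16). Of 14 genes of propeptide processing and crosslinking 3 were higher and 2 lower. These were led by Tll2, a tolloid-like metalloproteinase (1.15 ± 0.12), Adamts14, a procollagen N-proteinase (0.99 ± 0.12), the crosslinking oxidase Loxl1 (0.95 ± 0.18) and its relative Loxl4 (-0.84 ± 0.16). Of 10 collagen receptors 2 were higher and 2 lower, with Mrc2, an endocytic collagen receptor, at 0.85 ± 0.14. The integrin chains Itga11 and Itga10 stood at 0.57 ± 0.15 and -0.61 ± 0.18. Of 10 degradation genes 1 was higher, the inhibitor Timp3 (0.55 ± 0.11). Of 12 interstitial partners 3 were higher and 1 lower, with Thbs1, thrombospondin, at 1.47 ± 0.11, Fn1, fibronectin, at 1.34 ± 0.16, and the small proteoglycans Fmod and Dcn at 0.79 ± 0.26 and -0.88 ± 0.27. List medians lay between -0.03 and 0.13, beside 0.33 for the collagen genes and 0.00 for all genes.

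Of the 14 basement membrane partners 2 were higher and 3 lower in whole libraries, with Lama5 at -0.63 ± 0.11 (SE, log2) and Lama3 at 0.43 ± 0.11. In basal classes, where 9.16% of all genes tested were called, 3 of 14 were called, all lower in fetal nuclei: Lama1 (-1.21 ± 0.18), Lamb3 (-0.96 ± 0.18) and Hspg2 (-0.76 ± 0.15), which code for laminin chains and perlecan. Lamb3 had 69.0 and 73.1 RPM in fetal against 142 and 131 in adult basal nuclei, beside 39.2 and 46.0 against 98.6 and 74.1 for Col17a1. In luminal progenitor classes, where 19.9% of all genes tested were called, 3 of 14 were higher and 3 lower, among them Lama3 (0.57 ± 0.14), Lama4 (-0.57 ± 0.12) and Lamc1 (0.45 ± 0.11). Of 11 interstitial partners tested in basal classes 2 were higher and 4 lower. The largest changes were Bgn, biglycan, at -1.93 ± 0.42, Eln, elastin, at -1.14 ± 0.28, Fbn1, fibrillin, at -1.04 ± 0.19 and Thbs1 at 0.93 ± 0.15. Of 11 tested in luminal progenitors 5 were higher and 1 lower, with Fn1 at 1.86 ± 0.25, Postn, periostin, at -1.42 ± 0.25, Sparc, osteonectin, at 1.01 ± 0.24 and Eln at 0.79 ± 0.22. In class 6, Thbs1 was called, at 435 and 259 RPM in fetal and 89.9 and 133 in adult nuclei (1.65 ± 0.32, adjusted p = 0.0453), while no collagen gene was.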

How the data were processed

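Each library's listed reads were deposited as positions with the barcode of their nucleus, and the deposited nucleus tables give a class number and a count of reads per nucleus, which equalled the read lines in all 7846 nuclei. Per the submitters' processing notes Bowtie2, MACS2 and bedtools were used and the build is mm10. Co-accessibility scores were deposited by the authors as Cicero values over pooled nuclei. The deposited gene accessibility values were not used here, since their columns name no sample.

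Reads overlapping each gene plus 2 kb, or each 1000-base region, were counted per library and class with Python 3.11.15, pandas 2.3.3 and numba 0.67.0. The stage test was edgeR 4.0.16 (R 4.3.3) quasi-likelihood with TMM, listed reads as library sizes, features averaging 10 reads or more in a library, and Benjamini-Hochberg adjustment over all features. SE is the log2 difference divided by the root of F. DESeq2 1.42.0 was an alternative. With 2 libraries per stage, p-values measure only the spread between libraries. Stage was taken from the labels. Class comparisons have no test. No doublet caller was run.

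The 40 genes, the lists of markers and pathway genes and the rules for naming genes were chosen with earlier results of these data known. Genes named with full values were those called in a stage fit and the 6 highest and 3 lowest in class 6. Also named were the 4 highest and, with Col10a1 set aside, the 4 lowest in basal over luminal nuclei. Always named were Col1a1, Col1a2, Col3a1, Col4a1, Col4a2, Col7a1 and Col17a1. Of regions, at most 4 called in each direction were named, with the promoter regions of those 7 genes. Called pathway genes beyond those named are not reported here.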

Additional observations from a re-analysis of the deposited data

Results flagged for a closer look

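The stage difference of 10 collagen genes was not the same in basal and in luminal progenitor nuclei, by edgeR's test of the difference itself, in which a value below 0 means a lower fetal minus adult log2 difference in basal nuclei. Col7a1 stood at -1.57 ± 0.35 (SE, log2), Col17a1 at -1.16 ± 0.25 and Col15a1 at -0.92 ± 0.17. All 6 alternatives kept the same gene window, and these 3 genes were called under each. Col6a1 had a lower estimate than any of them, -1.85 ± 0.87, and was not called (adjusted p = 0.200). Among type IV genes Col4a6 stood at -0.81 ± 0.19, Col4a2 at -0.61 ± 0.15 and Col4a1 at -0.58 ± 0.17. Col4a6 lost its call with DESeq2. Over the alternatives Col4a2 ran from -0.89 to -0.26 and lost its call under 3 of 6, and Col4a1 ran from -0.90 to -0.29 and lost it under 4 of 6. Both were lost without the library block, with DESeq2 and without fetal replicate 2. Col5a1 was at -0.76 ± 0.21 and Col27a1 at -0.50 ± 0.17, both fibrillar. Col5a1 lost its call under 4 of 6 alternatives and Col27a1, which ran from -0.80 to -0.24, under 5. The FACIT genes Col16a1 and Col14a1 were at -0.60 ± 0.16 and -0.54 ± 0.19. Col16a1 lost its call under 5 of 6 alternatives, and Col14a1 under all 6 (adjusted p from 0.0962 to 0.379). Adjusted p-values ran from 7.32e-06 for Col15a1 to 0.0485 for Col14a1. In the basal fit alone, the log2 differences of these 10 genes ran from -1.15 for Col7a1 to 0.02 for Col4a1, with Col14a1 at -0.001. The basal marker sum was 446 and 518 RPM in fetal and 1064 and 940 in adult basal nuclei, and its part was not tested.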

How the results depend on the processing

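Counts of calls moved with single libraries, with the tool and with the minimum of reads. Leaving out 1 library leaves its stage with 1, assumed to vary like the other stage's 2. It gave 8 to 24 calls in whole libraries against 18 (8 without fetal replicate 2), 0 to 2 in class 6 against 0 (2 without fetal replicate 1), and 2 to 8 in basal classes against 6 (2 without fetal replicate 1). It gave 2 to 13 in luminal progenitors against 11 (2 without fetal replicate 2) and 5 to 13 for the difference between lineages against 10 (5 without fetal replicate 2 or adult replicate 1). The basal over luminal count of 3 became 3 to 7 (7 without fetal replicate 2). DESeq2 called 3 in basal classes, 7 in progenitors, 3 for the difference between lineages and 67 distal regions against 115. A minimum mean of 50 reads left 44 distal regions and gave 2 genes in class 6. Without the library block 4 genes differed between lineages. Taking all luminal classes gave 18 calls and turned Col6a3 to -0.98. For class 6, counting nuclei with a read gave 6 higher genes against 12, and asking for each of the 4 libraries gave 7 higher and 3 lower against 12 and 6. A 2-fold rule left 1 basal gene and 3 genes lower in adult progenitors.

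The replicate numbers were not taken as pairs: the labels tie them to no shared litter or batch, and the deviations of same-numbered libraries correlated at 0.286 over 16711 genes with only 2 pairs. A replicate block gave 26 calls in whole libraries, 10 in basal classes, 14 in progenitors, 108 distal and 16 promoter regions. The causes of these changes were not tested. The share of all features called in each alternative fit is not given beside these counts, so the changes cannot be read as particular to collagen genes.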
